A study of Mus musculus with 6 samples.

Results

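The comparison concerns 6 genes of heat production that does not run through UCP1. They are Gatm, Gamt, Slc6a8, Ckb and Alpl of the creatine cycle and Atp2a2, the calcium pump of the endoplasmic reticulum (ER). They were chosen by name for this role, with earlier results of these data known. They were looked up by symbol in the deposited table, which lists 13283 genes. Values were analysed for 5 of the 6, and Gatm was not analysed here.

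The cells of the 6 libraries belonged to a line of immortalized mouse brown preadipocytes (BAT cells) that carries Cas9 and was differentiated in culture. In 3 libraries the cells were pools transduced with sgRNA against MICT1 (MICT1 KO), a microprotein gene, and in the other 3 they were control cells, labelled wild type, with scrambled sgRNA (Scr). Per the study's methods, differentiation was induced with dexamethasone, indomethacin and IBMX, a phosphodiesterase inhibitor, beside rosiglitazone, insulin and T3. All cultures, Scr and MICT1 KO alike, were then kept in a medium with rosiglitazone, insulin and T3. They received 10 µM forskolin, an activator of adenylyl cyclase, for 6 h at day 6. No unstimulated library was compared, so nothing here separates basal from induced expression. The labels do not tell which of the knockout pools a library came from, and the guide acted in preadipocytes, before differentiation.

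In the creatine cycle of thermogenic fat, phosphate is moved from ATP to creatine and then lost from phosphocreatine, so that ATP is spent with no other work done. Creatine is made from arginine and glycine by Gatm and Gamt in turn, or taken up by the transporter Slc6a8. Ckb, the cytosolic brain-type creatine kinase, phosphorylates it, and the tissue-nonspecific alkaline phosphatase Alpl is known to remove the phosphate. In calcium cycling the SERCA2 pump encoded by Atp2a2 spends ATP to return calcium to the ER after it leaks out through ryanodine or IP3 receptor channels.

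The values are a normalized signal, in which the reads estimated for a gene are divided by the library's size factor. The factor lay between 0.949 and 1.08. Each library corresponded to 15445771 to 17925567 estimated reads. Markers of the adipocyte state differed between the groups. Of 14 tested adipocyte genes (among them Adipoq, Plin1, Fabp4 and Pparg), 14 fell in MICT1 KO. Of all genes tested, 28.3% fell and 28.5% rose. Ppargc1a, which encodes PGC1α, was too low to be tested. It was at 2.04 to 8.90 in Scr and 1.04 to 15.8 in MICT1 KO, with overlapping groups. The summed value of the 15 with values was 146025 to 172247 in Scr and 16114 to 23268 in MICT1 KO libraries. The summed value of 10 progenitor and fibroblast genes was 41971 to 48778 in Scr and 113588 to 127427 in MICT1 KO, with 5 of 8 tested rising and 2 falling. The list did not move together. The largest part of the sum was Fn1, fibronectin, with a mean of 23247 in Scr and 87525 in MICT1 KO. Dcn, a matrix proteoglycan, rose with the largest log2 fold change of the list, 4.75, while the preadipocyte marker Dlk1 fell (-3.47). Pdgfra fell by less (-0.19), with overlapping groups. The collagen gene Col3a1 did not pass (-0.047, adjusted p = 0.572 from limma-trend). The 3 immune and endothelial genes with values summed to 89.5 to 145 in Scr and 126 to 175 in MICT1 KO, and 1 of them, Cdh5, rose. Cdh5 was low, at 5.93, 12.1 and 8.14 in Scr, against 33.4, 30.6 and 25.9 in MICT1 KO. It reached 10 in control replicate 2 and in the MICT1 KO libraries, so it was tested only because of its values in MICT1 KO. Ucp1, the uncoupling protein of brown fat, was low in both groups, at 20.8, 24.1 and 30.5 in Scr, against 1.91, 1.05 and 9.33 in MICT1 KO. Per exon length its Scr mean ranked 10491 of 13142 genes. The values of Ucp1 and Adipoq reached 10 in the Scr libraries only. MICT1 was not analysed here and could not be used to check the labels. The part of these markers in the results for the creatine and calcium genes was not tested. In bulk RNA, fewer adipocytes and less RNA per adipocyte cannot be told apart.

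Of the 5 genes with values, Alpl and Gamt were lower in MICT1 KO libraries, by more than 3-fold on the mean values, and Slc6a8 was higher, by 1.92-fold. Ckb and Atp2a2 did not pass the test. A gene was called when its adjusted p from limma-trend was under 0.05 over the 12507 genes tested, those that reached a value of 10 in 3 or more libraries. All 5 passed that filter. Calls were common, with 56.9% of the tested genes called, 28.3% lower and 28.5% higher, so that 3 called of 5 is a share near the background. Likewise the 2 groups had no overlap in 5 of the 5 genes, and in 62.0% of all tested genes.

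**Figure D1:**
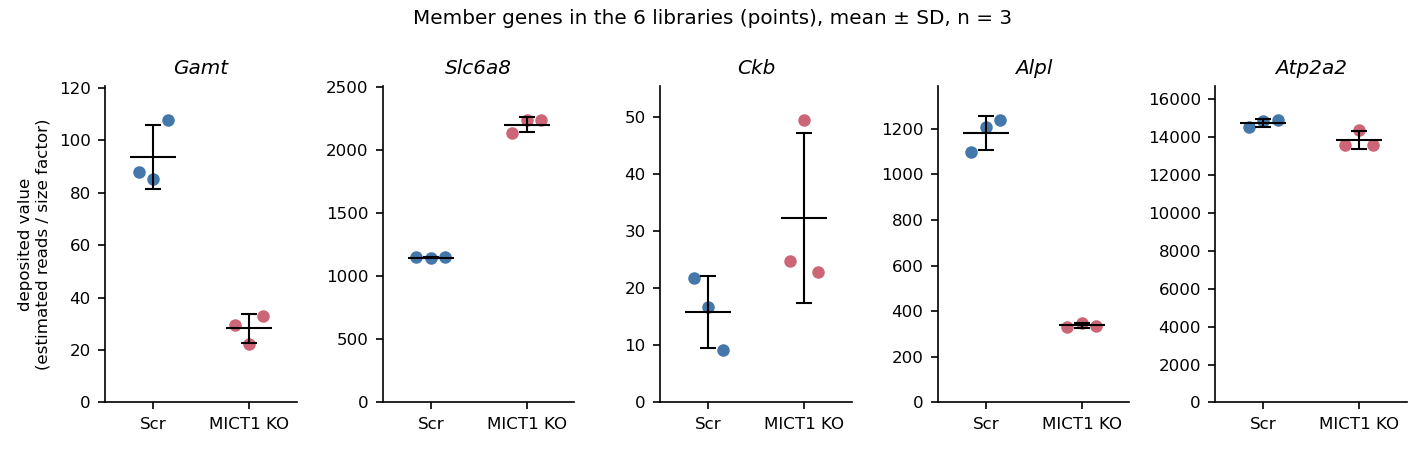
Deposited values of the 5 genes in each library on axes that start at 0. Points are libraries, and horizontal lines with bars are the mean and SD of 3 libraries. Gamt and Alpl sit lower and Slc6a8 higher in all 3 MICT1 KO libraries, with wide gaps, while Ckb and Atp2a2 are separated by small gaps.

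Gamt (chromosome 10, from 80258151 to 80261012, minus strand, GRCm38) encodes guanidinoacetate methyltransferase, which completes creatine from guanidinoacetate with S-adenosylmethionine as methyl donor. Its values were 88.0, 85.3 and 108 in Scr, against 29.6, 22.1 and 33.2 in the MICT1 KO libraries. The lowest Scr value was above the highest MICT1 KO value. The mean fell from 93.7 ± 12.3 to 28.3 ± 5.63 (mean ± SD, n = 3 each), a log2 fold change of -1.70 (SE 0.27, limma-trend adjusted p = 1.63e-05). SE is the standard error, and fold changes are on the log2(value + 1) scale, which understates those of genes with low values. Gamt rested on few reads, an estimated 89, 92 and 106 in Scr, against 31, 21 and 32 in MICT1 KO. Exact 95% Poisson intervals, which cover counting error only, ran from 71.5 to 128 over the Scr libraries and from 13.0 to 45.2 over the MICT1 KO libraries, and did not meet. Its log2 fold change stood at percentile 2.39 of those of all tested genes. With other settings it lay between -1.83 and -1.54, and its call held in all 14 of them.

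The RefSeq promoter of Gamt, 250 bases before and 50 after the start, is shown because Gamt was called (GRCm38.p6, chr10:80260963-80261262, minus strand, 5′ to 3′). Capitals mark the 4 GC boxes (GGGCGG, here read as CCGCCC), which begin 86, 67 and 22 bases upstream of the start and at base 38 of the transcript.
Gamt: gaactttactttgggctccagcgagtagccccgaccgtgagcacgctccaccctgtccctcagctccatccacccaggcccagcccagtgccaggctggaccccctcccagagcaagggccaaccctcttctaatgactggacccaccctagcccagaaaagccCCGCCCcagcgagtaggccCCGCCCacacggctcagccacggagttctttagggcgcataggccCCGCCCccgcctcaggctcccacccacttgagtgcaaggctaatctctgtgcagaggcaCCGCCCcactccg
Of 32851 RefSeq promoters of this length, 35.7% held a GC box on either strand. A full cAMP response element (TGACGTCA, in 1.79% of promoters), its shorter core TGACG (20.8%, also counted inside the full element) and the nuclear receptor motif AGGTCA (16.3%) were not found among these letters. This says nothing of the factors that bind such motifs.

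Slc6a8 (chromosome X, from 73673150 to 73682502, plus strand) encodes the sodium- and chloride-dependent transporter that brings creatine into the cell. Its values were 1148, 1142 and 1148 in Scr, against 2131, 2237 and 2233 in MICT1 KO libraries. Every MICT1 KO value was above every Scr value, and the Scr libraries were nearly equal. They rested on an estimated 1161, 1232 and 1128 reads, so they were closer after scaling than counting error alone would make them. This closeness is not a measure of reproducibility. The mean rose from 1146 ± 3.49 to 2200.1 ± 60.0 (mean ± SD, n = 3 each), with a log2 fold change of 0.94 (SE 0.061, limma-trend adjusted p = 3.80e-11). It stayed between 0.93 and 0.96 in the other settings and was called in all 14.

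Slc6a8 for uptake and Gamt for synthesis moved in opposite directions. Scaled to exon length, Slc6a8 stood at 3.62, 3.71 and 2.95 times the level of Gamt in the 3 Scr libraries. In the MICT1 KO libraries the ratio was 19.98, 28.0 and 18.7. These ratios are values with no test of their own. The levels of creatine, phosphocreatine and the transporter protein were not measured in these libraries.

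Ckb (chromosome 12, from 111669361 to 111672338, minus strand) had the lowest values of the 5 genes in the Scr libraries. The values were 21.8, 16.7 and 9.16 in Scr, against 24.8, 49.5 and 22.8 in MICT1 KO libraries. All 3 MICT1 KO values were above the Scr values, but the gap between the groups, from 21.8 to 22.8, was much smaller than the spread within either. The Scr mean was 15.9 ± 6.34 and the MICT1 KO mean 32.4 ± 14.9 (mean ± SD, n = 3 each), a log2 fold change of 0.97 (SE 0.44, limma-trend adjusted p = 0.0624). Its 95% interval, not adjusted for the number of genes, ran from 0.067 to 1.88, so the data leave room for anything from nearly no difference to one above 3-fold.

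The reads behind Ckb were an estimated 22, 18 and 9 in Scr, against 26, 47 and 22 in MICT1 KO libraries. The exact Poisson interval of Scr library 1, from 13.8 to 33.3, was the same as that of MICT1 KO library 3, since both held 22 reads. The highest library, MICT1 KO replicate 2, had an interval from 34.5 to 62.5. Single libraries moved the result. Without control replicate 1 the log2 fold change was 1.23 and without KO replicate 3 it was 1.17, and Ckb was then called (adjusted p of 0.0417 and 0.0467 from limma-trend). Without KO replicate 2 it was 0.63 (adjusted p = 0.304) and without control replicate 3 it was 0.65 (adjusted p = 0.232). In the 7 other settings that kept all libraries its adjusted p lay between 0.0537 and 0.0677.

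The Ckb promoter is shown because Ckb is the kinase of the cycle (GRCm38.p6, chr12:111672289-111672588, minus strand). Capitals mark 2 CCAAT boxes (CCAAT), 46 and 16 bases upstream of the start, and a TATA box (TATAAA) at 28 bases.
Ckb: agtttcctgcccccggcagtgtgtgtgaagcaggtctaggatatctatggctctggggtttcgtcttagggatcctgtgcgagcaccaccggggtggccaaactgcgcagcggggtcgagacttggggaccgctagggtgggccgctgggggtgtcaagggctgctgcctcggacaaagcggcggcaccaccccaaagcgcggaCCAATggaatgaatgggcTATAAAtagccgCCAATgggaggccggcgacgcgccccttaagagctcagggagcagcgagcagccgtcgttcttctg
A CCAAT box was present in 37.4% and a TATA box in 13.6% of the RefSeq promoters. None of the cAMP response element, its core and AGGTCA was found in these letters. No sequence was printed for the promoters of Slc6a8 and Atp2a2.

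Alpl (chromosome 4, from 137741733 to 137796384, minus strand) encodes an alkaline phosphatase held at membranes by a GPI anchor, known for mineralization in bone and as the phosphocreatine phosphatase of thermogenic fat. Its values were 1098, 1208 and 1239 in Scr, against 329.9, 349 and 336 in MICT1 KO libraries. The groups were far apart and the MICT1 KO libraries close together. The mean fell from 1182 ± 74.3 to 338 ± 9.65 (mean ± SD, n = 3 each), 3.49-fold, with a log2 fold change of -1.80 (SE 0.086, limma-trend adjusted p = 1.98e-13). This was rank 590 of 12507 by size of change and rank 179 by p. With other settings it lay between -1.85 and -1.77, and it was called in all 14.

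Alpl is also an osteoblast gene, so osteoblast markers are given beside it. Of 3 that were tested, 3 rose (Spp1, Col1a1 and Runx2), beside 28.5% of all tested genes. Whether these genes bear on the result for Alpl was not tested. The summed value of the 6 with values was 19571 to 20828 in Scr and 34883 to 40771 in MICT1 KO. Most of that sum was Col1a1, with a mean of 17955 in Scr and 30595 in MICT1 KO. Sp7, the osteoblast transcription factor osterix, was low in every library, from 2.97 to 10.5, and below the filter. So were Dmp1, from 1.02 to 10.2, and Phex, from 2.04 to 13.3, both with overlapping groups. Bglap and Ibsp were not analysed here.

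RefSeq gives 2 promoters for Alpl, and the gene values do not separate their transcripts. Both are shown because Alpl was the most changed of the 5 genes. The upstream one (GRCm38.p6, chr4:137796335-137796634, minus strand) held 3 GC boxes, in capitals, which begin 15 and 10 bases upstream and at the start itself, the first and second sharing a base. The downstream one (chr4:137766426-137766725) held a core of a cAMP response element (TGACG, read as CGTCA) 128 bases upstream, AGGTCA 31 bases upstream and TATAAA (read as TTTATA) 192 bases upstream, in capitals.
Alpl upstream: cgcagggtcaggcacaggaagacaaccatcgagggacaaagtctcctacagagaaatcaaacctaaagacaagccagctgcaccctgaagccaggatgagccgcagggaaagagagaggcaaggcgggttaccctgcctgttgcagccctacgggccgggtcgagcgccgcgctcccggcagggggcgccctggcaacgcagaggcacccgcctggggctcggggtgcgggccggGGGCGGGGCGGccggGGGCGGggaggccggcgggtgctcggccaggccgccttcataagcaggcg
Alpl downstream: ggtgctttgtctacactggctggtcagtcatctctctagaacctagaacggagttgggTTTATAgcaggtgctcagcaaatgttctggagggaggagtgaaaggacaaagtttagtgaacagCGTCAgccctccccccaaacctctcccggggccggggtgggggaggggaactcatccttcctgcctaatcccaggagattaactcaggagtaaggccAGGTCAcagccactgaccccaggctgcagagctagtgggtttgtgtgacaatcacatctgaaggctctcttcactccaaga
The GC content was 70.0% in the upstream and 54.3% in the downstream window, against a median of 52.7% over all promoters, and the windows held 26 and 4 CG pairs against a median of 7.

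Atp2a2 (chromosome 5, from 122453513 to 122502225, minus strand) encodes SERCA2, whose splice forms a gene value cannot tell apart. Its values were 14512.5, 14864 and 14911 in Scr, against 13588, 14390.5 and 13569.6 in MICT1 KO libraries. The highest MICT1 KO value lay just under the lowest Scr value. The Scr mean was 14763 ± 218 and the MICT1 KO mean 13849 ± 469 (mean ± SD, n = 3 each), a log2 fold change of -0.093 (SE 0.051, limma-trend adjusted p = 0.130). Its 95% interval from -0.20 to 0.014 does not reach a change of the size seen for the other genes. It was not called in any of the 14 other settings, where the log2 fold change lay between -0.12 and -0.078. At least 13091 estimated reads stood behind each of its values. In the GENCODE vM21 annotation 83 exon bases of Atp2a2 overlap Gm43361 on the other strand, so a few reads could belong to either if strand was not used in counting. No exon of another gene overlapped Gamt, Slc6a8, Ckb or Alpl.

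**Figure D2:**
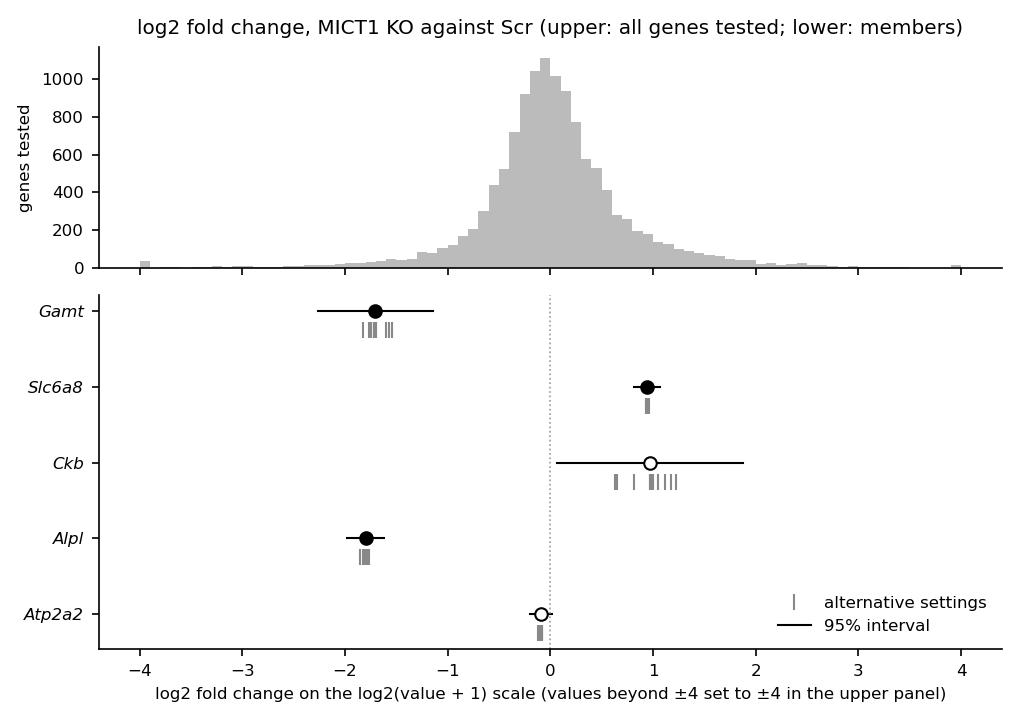
The upper panel counts the 12507 tested genes by log2 fold change, and the lower panel gives the 5 genes (circle, filled when called; line, 95% interval; grey ticks, up to 14 alternative settings each). Gamt and Alpl lie in the left tail, Slc6a8 and Ckb on the right shoulder with a wide interval for Ckb, and Atp2a2 near the centre.

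Compared per exon length (RPKM, with the library's sum of values as its total), the Scr order was Atp2a2 at 148, Alpl at 17.9, Slc6a8 at 13.4, Gamt at 3.97 and Ckb at 0.336. No neighbours in that order overlapped over the 3 Scr libraries. Atp2a2 was at rank 235 and Ckb at rank 11642 of the 13142 genes with an exon length. In MICT1 KO libraries Slc6a8 at 25.9 stood above Alpl at 5.14, with ranges of 24.9 to 26.4 and 4.98 to 5.31. Gamt at 1.20 and Ckb at 0.686 came last and overlapped, since in KO replicate 2 Gamt was at 0.942 and Ckb at 1.05. Their order depends on the exon lengths, which join the exons of all transcripts, 2895 bases for Ckb and 1444 for Gamt. Not divided by length, the MICT1 KO mean was 32.4 for Ckb and 28.3 for Gamt. With a minimum change of 1.8-fold, p under 0.05 and a maximum of at least 4 RPKM, with p taken here as unadjusted, Alpl, Slc6a8 and Gamt were included. Gamt reached 4 RPKM in 1 library, at 4.56 in control replicate 3. Ckb met the fold and the unadjusted p but its maximum was 1.05 RPKM.

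**Figure D3:**
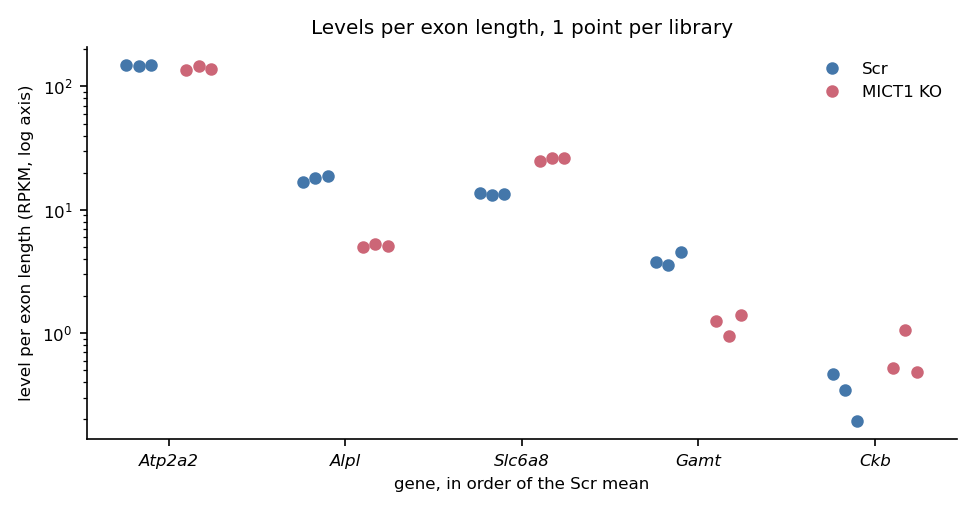
Level per exon length of each gene on a log axis, 1 point per library, ordered by the Scr mean. From Scr to MICT1 KO libraries, Alpl and Slc6a8 exchange places, and 1 of the 3 MICT1 KO values of Gamt, 0.942, lies within the range of Ckb.

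The genes around creatine synthesis moved in both directions, as the tested genes did at large. Of 22 genes listed for guanidinoacetate synthesis, the S-adenosylmethionine cycle and arginine and glycine supply, 17 were tested. Of these 7 fell, Gamt included, and 4 rose, with a median log2 fold change of -0.18, beside -0.0053 over all genes tested. Calls in both directions were common, with 28.3% of all genes tested lower and 28.5% higher. The largest rise was that of Ass1, argininosuccinate synthase, which makes the precursor of arginine, from 219, 111 and 125 in Scr to 786, 701 and 700.5 in MICT1 KO. Its log2 fold change was 2.32 (SE 0.17, limma-trend adjusted p = 3.33e-10), and the groups did not overlap. Of 4 genes named after their values were seen, Ahcy, which removes the S-adenosylhomocysteine left by methyl transfer, fell with a log2 fold change of -0.89 and its relative Ahcyl2 with -0.99. Oat, the mitochondrial ornithine aminotransferase, rose with 0.59. Mat2a, which makes S-adenosylmethionine, rose with 0.20, although its groups overlapped. Of the 4 creatine kinase genes listed, Ckb was the one with values, and Ckm, Ckmt1 and Ckmt2 were not analysed here.

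Among 15 tested genes of phosphate and pyrophosphate handling, 6 fell, Alpl included, and 4 rose, with a median of -0.22. Here too the background was 28.3% lower and 28.5% higher over all genes tested. Phospho1, the phosphatase of phosphoethanolamine and phosphocholine, was the other one to fall at least 2-fold. Its values were 3372, 4009 and 3988 in Scr, against 1402, 1271 and 1297 in MICT1 KO, without overlap, a log2 fold change of -1.51 (SE 0.070, limma-trend adjusted p = 1.18e-13). The intestinal alkaline phosphatase Alpi was at 6.32 to 30.6 with overlapping groups, and its log2 fold change of -0.95 did not pass (adjusted p = 0.137). Pigs and Pigt, subunits of the transamidase that attaches GPI anchors, and Slc20a1, a phosphate carrier, rose with log2 fold changes of 0.73, 0.62 and 0.71, and were named after their values were seen.

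In the ER calcium list of pumps, regulators and calcium-binding proteins, 20 of 29 genes were tested, of which 13 rose and 2 fell, with a median of 0.27. The shares over all tested genes were 28.5% higher and 28.3% lower. Atp2a2 was one of 5 that did not pass. Atp2a3, which encodes SERCA3, was at 203, 288 and 142.5 in Scr, against 122, 140.1 and 117 in MICT1 KO. All MICT1 KO values were lower, but control replicate 3 was close to KO replicate 2. Its log2 fold change was -0.68 (SE 0.20, limma-trend adjusted p = 0.00682). Per exon length Atp2a2 made up 98.4% ± 0.549 of the sum of Atp2a2 and Atp2a3 in Scr and 99.0% ± 0.0637 in MICT1 KO libraries (SD, n = 3 each). By an exact two-sided permutation test p was 0.2, where 3 libraries against 3 cannot give a p below 0.1. Cnpy2, named after its value was seen, also fell (-0.28). The count of falls went from 2 to 0 without control replicate 2, to 1 without KO replicate 2, and to 1 with the filter at 4 RPKM.

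The largest rise in that list was that of Calr, calreticulin, the main calcium buffer of the ER, from 9043, 9594 and 7999 in Scr to 17488, 16688 and 15593 in MICT1 KO. It had a log2 fold change of 0.90 (SE 0.064, limma-trend adjusted p = 1.24e-10). Of the small membrane proteins that bind SERCA pumps, the one tested was another-regulin (1810037I17Rik), with values of 964, 1094 and 1057 in Scr, against 1433, 1344 and 1486 in MICT1 KO. It rose with a log2 fold change of 0.45 (SE 0.072, limma-trend adjusted p = 1.73e-05), and its groups did not overlap. Sln, Pln, Mrln, Strit1 and Erln, as well as the muscle pump gene Atp2a1, were not analysed here. Skeletal muscle markers were low, with a sum of 4 genes of 89.0 to 94.95 in Scr and 68.5 to 105.8 in MICT1 KO, and Myod1 and Myog were not analysed here.

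Genes of calcium release were mostly higher. Of 21 tested, 13 rose and 4 fell, beside 28.5% higher and 28.3% lower over all tested genes. The median was 0.44, and with the filter at 4 RPKM the falls went from 4 to 2. The IP3 receptor genes differed in direction. Itpr1 fell with a log2 fold change of -0.99 (1344, 1357 and 1434 in Scr, 598, 726 and 762 in MICT1 KO) and Itpr2 with -0.80. Itpr3 rose with 0.51, from 700.3, 591 and 568 to 945, 853 and 841. Per exon length, Itpr3 went from 43.0% ± 3.47 of the summed IP3 and ryanodine receptor signal in Scr to 67.4% ± 4.10 in MICT1 KO (SD, n = 3 each). Itpr1 went from 47.2% ± 2.80 to 26.2% ± 3.33 (SD, n = 3 each), both with an exact permutation p of 0.1, the smallest these libraries allow. Ryr1 was at 0.989 to 8.58 and below the filter, and Ryr2 and Ryr3 were not analysed here.

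Other genes of the release list that changed at least 2-fold were Plcb1, a phospholipase C that makes IP3, which fell with a log2 fold change of -2.10 (SE 0.28), Asph, whose junctate form binds calcium at the ER, which rose with 1.09, and Bcl2. Bcl2 was at 2.97, 10.2 and 10.2 in Scr, against 15.3, 39.0 and 36.3 in MICT1 KO, a log2 fold change of 1.87 (SE 0.54, limma-trend adjusted p = 0.00563) on few reads.

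For calcium entry and removal at the plasma membrane, 17 genes were tested, of which 8 rose and 5 fell, with a median of 0.19. For this list and the mitochondrial list below, the shares over all tested genes were 28.5% higher and 28.3% lower. Orai2, a pore subunit of store-operated calcium entry, rose most, from 1262, 1339 and 1148 in Scr to 3862, 4044 and 4484 in MICT1 KO, a log2 fold change of 1.72 (SE 0.069, limma-trend adjusted p = 1.15e-14). The voltage-gated calcium channel subunit genes Cacna1c and Cacnb3 rose with 1.62 and 1.20. The count of rises went from 8 to 5 without KO replicate 2, and that of falls from 5 to 3 without control replicate 3 and to 2 without KO replicate 3. Among 19 tested genes of mitochondrial calcium handling, 8 fell and 4 rose, with a median of -0.050. Slc25a23, a calcium-regulated carrier of ATP-magnesium and phosphate, fell with a log2 fold change of -1.81 (SE 0.23). Mcu, the pore of the mitochondrial calcium uniporter and also named after its value was seen, did not pass (0.13, adjusted p = 0.215 from limma-trend).

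**Figure D4:**
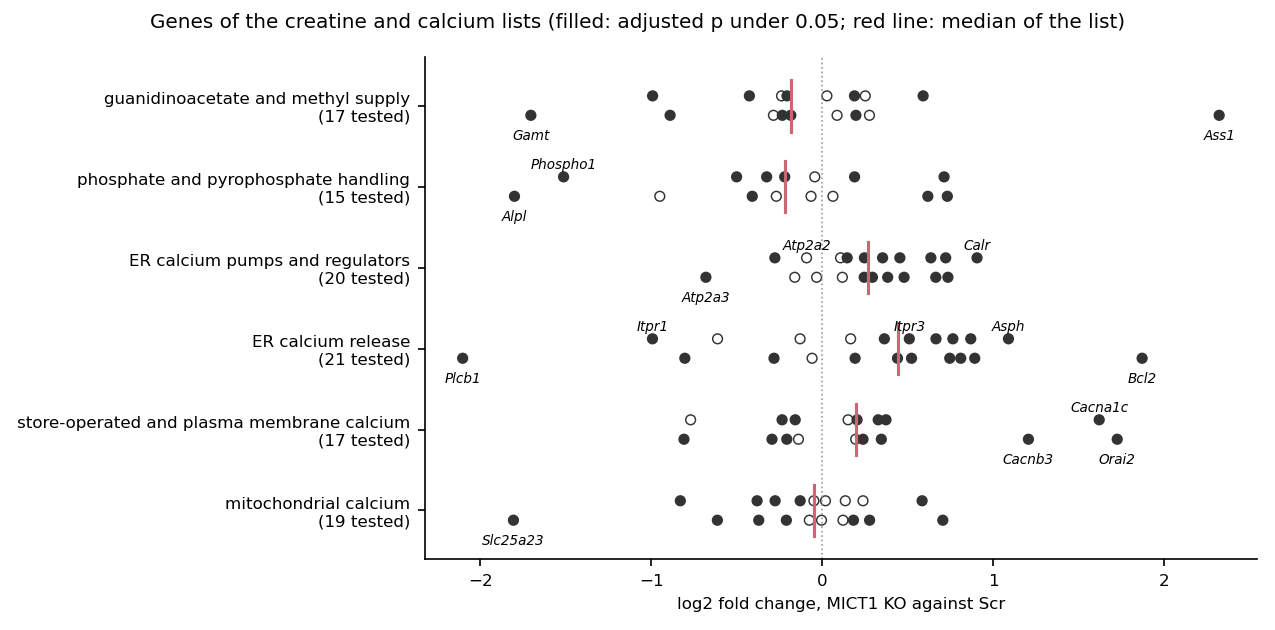
Each circle is a tested gene of the list named at the left, placed by log2 fold change and filled when its adjusted p was under 0.05. Red lines mark list medians, which lie between -0.22 and 0.44, and Gamt, Alpl and Atp2a2 are labelled among the other genes.

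The genes whose values followed each of the 5 most closely over the 6 libraries were found by Pearson's r of log2(value + 1). As the libraries form 2 groups, r carries the group difference, and it is given as a description only. For Gamt these were Igfbp2 (0.9998), Hibch (0.9994) and Ivd (0.9986). For Alpl they were Slc25a51, Mknk2 and Zpr1 (r from 0.9997 to 0.9999). Those for Slc6a8 included Cep128 and Sytl2 (both with r of 0.9995 or more). Pcdh1, H4c12 and Mbnl2 were nearest to Ckb, with r from 0.983 to 0.990, and Pet117, 9430038I01Rik and Snx24 to Atp2a2, with r from 0.9935 to 0.9993. The genes nearest to Alpl differed from it in the size of the change, from -1.12 for Slc25a51 to -0.30 for Zpr1 on the log2 scale.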

How the data were processed

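RNA was measured in 3 Scr and 3 MICT1 KO libraries (paired-end, stranded total RNA per the study's methods). The deposited table holds a signal per gene, made by the authors with Partek software. The submitters' processing notes also name STAR, DESeq2 and GRCm38/mm10. The annotation and the counting model were not given in the sources used here. From 88.7% to 90.2% of the low values in a library were whole reads within 0.01 once the size factor was undone, too few for a count test. Each value was taken as log2(value + 1), genes that reached 10 in 3 or more libraries were kept, and groups were compared with limma-trend (limma 3.58.1, R 4.3.3) and Benjamini-Hochberg adjustment over all 12507 genes. The procedure was tested on simulated data. Shares were compared by an exact two-sided permutation test. Exon lengths came from GENCODE vM21 (GRCm38) for 13142 of 13283 genes, 212 of them by an older symbol, and promoters from RefSeq (GRCm38.p6).

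The members and lists were chosen with earlier results of these data known. Named were the 6 genes, list genes called and changed at least 2-fold (otherwise the largest called rise and fall), paralogs and SERCA regulators, IP3 and ryanodine receptors, defining markers, and the 3 genes most like each member, of which 1 is not reported here. Other genes are named as chosen after their values were seen. The labels do not say whether libraries are separate cultures, and p-values then measure only the spread between these libraries. Alternatives were other scalings, limma-voom, other filters and pseudocounts, a replicate block and each library left out.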

Additional observations from a re-analysis of the deposited data

How the results depend on the processing

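Gamt, Slc6a8 and Alpl kept their direction and call, and Atp2a2 stayed uncalled (adjusted p from 0.0785 to 0.315, limma), in all 14 alternatives. For Ckb the log2 fold change ran from 0.63 to 1.23 when 1 library was left out, and it was called without control replicate 1 (1.23) and without KO replicate 3 (1.17). With the filter at a maximum of 4 RPKM Ckb could not be fitted, and the falls among ER pumps and regulators went from 2 to 1 and among release genes from 4 to 2. With 1 library left out, falls among ER pumps and regulators ranged from 0 to 2, and for store-operated and plasma membrane calcium falls ranged from 2 to 5 and rises from 5 to 7. The share of Itpr2 differed by -3.58 percentage points per exon length and by -2.62 without dividing by it. The cause of these shifts was not tested. With the replicate number as a block, 3512 genes were lower and 3543 higher, Ckb kept a log2 fold change of 0.97 (adjusted p = 0.0549, limma), and no call among the 5 genes changed. The deviations of same-numbered libraries correlated at -0.024, -0.015 and 0.064, so the numbers were not taken to pair samples, and control replicates 1 and 2 did not correlate best with their own numbers. Few reads limit Ckb, with 9 to 47 in a library, and Gamt, with 21 to 106.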
